A study of Sus scrofa with 18 samples.

Results

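The macrophage and neutrophil markers AIF1, C1QA, C1QC, CD14, CD163, S100A8, S100A9 and S100A12 were followed through pregnancy in the porcine endometrium, the inner lining of the uterus. The members were all probe sets whose gene symbol in the platform annotation was one of these 8 names, which gave 10 probe sets of the 24123 on the porcine array, with a pair each for CD14 and CD163. Yorkshire gilts on gestational days (GD) 15, 26 and 50 and Meishan gilts on GD15, GD26 and GD50 formed the 6 groups, with 3 arrays each and 18 in all. All gilts, which are young females, were pregnant by boars of their own breed, none was treated, and no endometrium of a non-pregnant animal was included. Each array carried a pool of RNA from 1 conceptus attachment site of each of the same 2 gilts, so that the p-values measured only the spread between site pools of 1 pair of gilts and not the spread between gilts. Values were log2 intensities, and a probe set was tested in the main fits if its intensity was above 100, which is 6.64 on the log2 scale, on at least 6 of the 18 arrays. Of the 9320 probe sets that passed, 5 were members, 1 each for AIF1, CD163, C1QA, C1QC and S100A9. CD14, S100A8 and S100A12 did not pass and were read from a fit over all 23999 probe sets other than controls.

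Macrophages are tissue-resident phagocytes that clear dying cells and debris, and they gather in the pregnant uterus where the placenta forms. AIF1 encodes a calcium-binding, actin-bundling protein of activated macrophages, CD163 is the scavenger receptor that takes up haemoglobin bound to haptoglobin, CD14 is the co-receptor that hands bacterial lipopolysaccharide to TLR4, and C1QA and C1QC encode chains of C1q, the recognition molecule of the classical complement pathway, which macrophages secrete. S100A8, S100A9 and S100A12 are calcium-binding proteins stored in the cytoplasm of neutrophils and monocytes, and S100A8 and S100A9 work as a pair called calprotectin, which withholds zinc and manganese from microbes. S100A9 can also be made by epithelial cells under inflammatory stimulation.

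The genes of each set lie side by side in the pig genome. In the gene order of the Sscrofa11.1 assembly C1QA is followed by C1QC and then C1QB, and S100A8 is followed by S100A12 and then S100A9. No probe set matched C1QB.

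The labelled tissue was present on the arrays, with 9 of 9 epithelial and 6 of 7 stromal genes past the filter, but it did not stand alone. The 5 trophoblast genes past the filter, which mark the outer cells of the conceptus and include the pregnancy-associated glycoprotein PAG6, were all under an intensity of 100 on the 6 GD15 arrays. Their summed intensity was 73859 to 89071 in Yorkshire GD26 and 46519 to 65809 in Yorkshire GD50 endometrium, and 40144 to 74525 in Meishan GD26 and 70833 to 88213 in Meishan GD50 endometrium. HBE1, an embryonic globin, was at 13.81 to 14.06 in Yorkshire GD26 and at 6.64 to 12.64 in Meishan GD26 endometrium, and at no more than 3.07 in the other 4 groups. HBE1 did not pass the filter. HBB, the only red cell gene that did, went the other way from GD15 to GD26. It fell by 1.09 in Yorkshire as deposited (adjusted p = 0.0135) and by 1.10 in Meishan endometrium (adjusted p = 0.00791, limma), and its values under other scalings are not given. The part of conceptus cells in the member changes between GD15 and the later days was not tested.

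The member names were checked against other genes of the same cells. Of 16 other macrophage genes 8 had a probe set and only VSIG4 and CTSS passed the filter, while SIGLEC1 and MARCO were at or below 3.71 on every array. Of 27 other neutrophil genes 9 had a probe set and only CYBA and PGLYRP1 passed, while the granule genes ELANE, LTF, MMP9, NPG4 and PR39 reached no more than 4.35 on any array. ITGAM, the integrin chain of neutrophils and macrophages, reached no more than 3.85. The neutrophil name therefore rested on S100A9 in most groups, and the S100 genes are named below as genes and not as a measure of neutrophils. In whole tissue fewer cells of a type and less RNA per cell cannot be told apart.

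Between GD15 and GD26, all 5 members past the filter changed in Yorkshire endometrium, against 65.2% of all probe sets past the filter, and 3 of 5 changed in Meishan endometrium, against 50.9%. Between GD26 and GD50, 2 of 5 changed in Yorkshire endometrium, against 13.6% of all probe sets, and 1 of 5 in Meishan endometrium, against 18.4%. From GD15 to GD50, 3 of 5 changed in Yorkshire (66.5% of all) and 2 of 5 in Meishan endometrium (52.0% of all). The change from GD15 to GD26 differed between the breeds in 3 of 5 members (35.5% of all), that from GD26 to GD50 in 0 of 5 (4.37% of all, and 1 of 5 at an unadjusted p under 0.05 in limma) and that from GD15 to GD50 in 4 of 5 (39.5% of all). In the fit over all probe sets the breed difference of S100A12 was called from GD26 to GD50, where 2.19% of all were called, and from GD15 to GD50, where 18.8% were. Yorkshire differed from Meishan endometrium in 2 of 5 members on GD15, where 9.80% of all probe sets differed, in 2 of 5 on GD26 (53.2% of all) and in 3 of 5 on GD50 (56.5% of all). With a background of more than 50% in 6 of the 9 comparisons of days or breeds, the number of members called says little, and the size, direction and order of the changes are described instead. The median log2 change of the 5 members from GD15 to GD26 was 0.81 in Yorkshire endometrium, where that of all probe sets was -0.47, and 0.57 in Meishan endometrium, where that of all probe sets was -0.06.

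**Figure D1:**
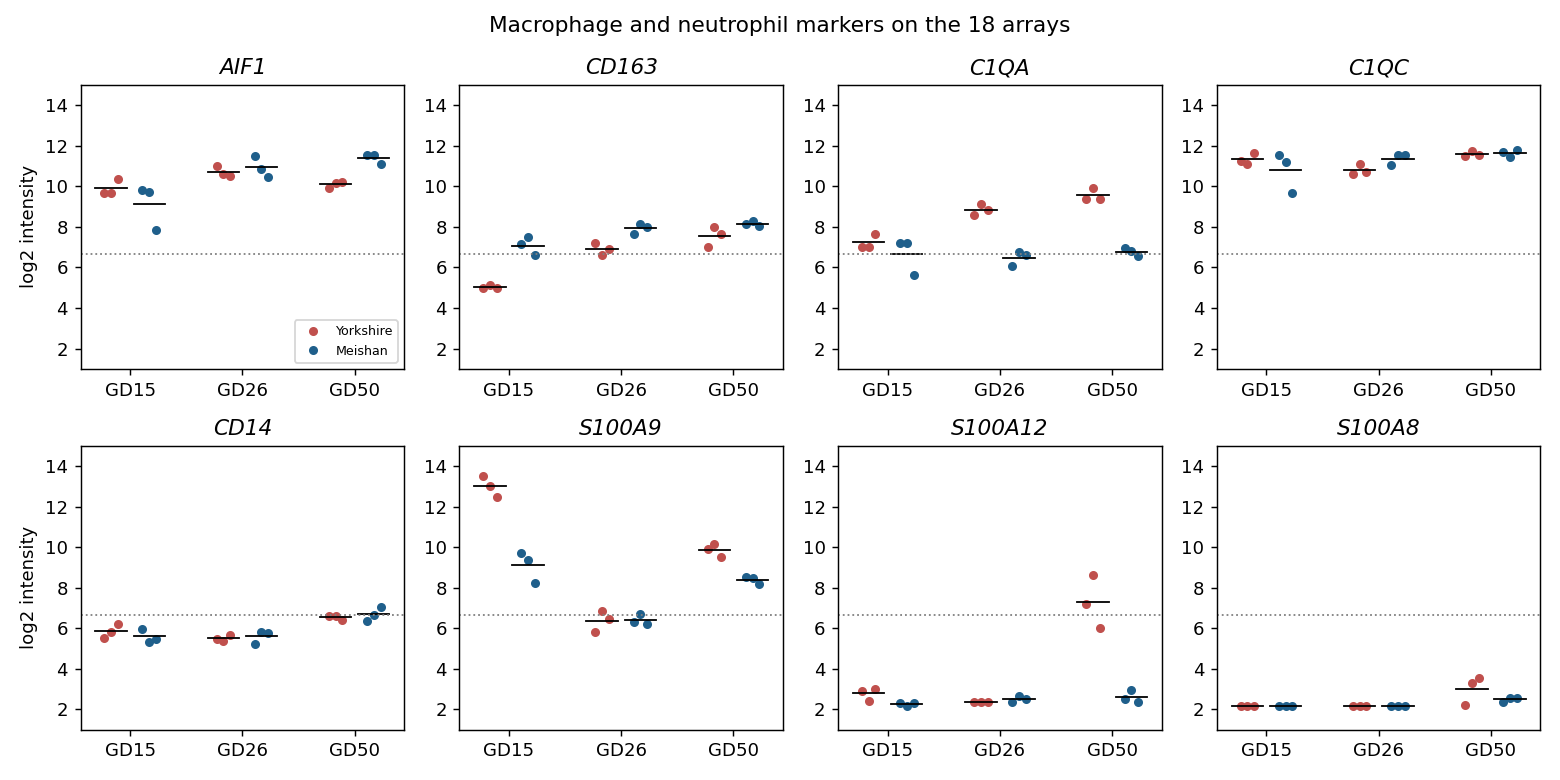
Log2 intensity (vertical axis) of the brighter or only probe set of each of the 8 members on GD15, GD26 and GD50, with Yorkshire arrays in red left of Meishan arrays in blue. Points are single arrays, bars are means of 3 arrays, and the dotted line is an intensity of 100; S100A9 is highest on the 3 Yorkshire GD15 arrays (12.49 to 13.50) and C1QA on the Yorkshire GD26 and GD50 arrays (8.57 to 9.93).

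The arrays were of uneven brightness. On the 6 Yorkshire GD26 and GD50 arrays the spiked-in hybridization controls averaged 11.8 to 13.7, the array median over filtered probe sets was 7.78 to 8.13, and 7131 to 8036 probe sets were above 100. On the other 12 arrays the controls averaged 10.04 to 11.43, the median was 8.31 to 8.40, and 8373 to 8743 probe sets were above 100. Within every group the correlation of 2 arrays over all probe sets was between 0.948 and 0.991. Comparisons that set these 6 arrays against others were recomputed after each array was centred on its median, after quantile normalization and after cyclic loess, and the values are given where one of these changed a call.

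S100A9 had the widest course of all members. In Yorkshire endometrium the values were 13.50, 13.03 and 12.49 on GD15, then 5.81, 6.84 and 6.47 on GD26, then 9.89, 10.15 and 9.49 on GD50. In Meishan endometrium they were 9.72, 9.38 and 8.22 on GD15, then 6.32, 6.69 and 6.20 on GD26, then 8.55, 8.48 and 8.17 on GD50. Both breeds thus had their lowest level on GD26, where only 1 of 3 Yorkshire arrays and 1 of 3 Meishan arrays were above an intensity of 100, and in neither breed did the GD26 arrays overlap with those of GD15 or GD50.

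From GD15 to GD26 S100A9 fell by 6.63 ± 0.33 on the log2 scale (SE) in Yorkshire endometrium (adjusted p = 3.06e-07, limma), and by 6.30 with intensities under 100 set to 100, as 2 of the 3 GD26 arrays lay under that level. The fall in Meishan endometrium was by 2.70 ± 0.33 (adjusted p = 0.000132), and by 2.45 with that floor. The Yorkshire change was the larger of the pair, with a breed difference of -3.93 ± 0.50 (adjusted p = 4.24e-05). From GD26 to GD50 S100A9 rose by 3.47 ± 0.33 in Yorkshire (adjusted p = 0.000217) and by 1.99 ± 0.33 in Meishan endometrium (adjusted p = 0.00337), and the breed difference of this step, 1.48 ± 0.50, did not pass the test (adjusted p = 0.107).

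GD50 did not bring S100A9 back to its GD15 level in Yorkshire endometrium, where it was lower than on GD15 by a log2 change of -3.16 ± 0.33 (adjusted p = 3.00e-05). In Meishan endometrium the change over the same span was -0.71 ± 0.33 (adjusted p = 0.101), and -1.15 (adjusted p = 0.00142) without the third GD15 array. The order of the group means was Yorkshire GD15, Yorkshire GD50, Meishan GD15, Meishan GD50, Meishan GD26 and Yorkshire GD26, and in this order the arrays of neighbouring groups overlapped except after Yorkshire GD15 and after Meishan GD50. Yorkshire exceeded Meishan endometrium by 3.90 ± 0.35 on GD15 (14.9-fold, adjusted p = 2.04e-06) and by 1.44 ± 0.35 on GD50 (adjusted p = 0.00296), while on GD26 the difference was -0.03 ± 0.35 (adjusted p = 0.948).

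S100A8, the usual partner of S100A9, did not follow it. Its probe set stood at 2.19 on all 12 arrays of GD15 and GD26, including the Yorkshire GD15 arrays on which S100A9 was at its highest, and at 2.23 to 3.55 in Yorkshire GD50 and 2.37 to 2.57 in Meishan GD50 endometrium. None of the 18 arrays came near an intensity of 100, so no fold change is given. Of the 3 other scalings only median centring called the Yorkshire GD50 difference. It was called against Yorkshire GD15 (1.30, adjusted p = 0.0153) and against Meishan GD50 endometrium (0.94, adjusted p = 0.00775). These values lie under 100 throughout as deposited. Without array 1 of Yorkshire GD50 both were called as well (adjusted p = 0.000217 and 1.62e-06). In 1 fit over both breeds the first was called (adjusted p = 0.00975). As deposited, Meishan GD50 was called higher than GD15 (0.31, adjusted p = 0.00642) and GD26 (0.31, adjusted p = 0.0188) in the fit over all probe sets. In that fit 21.8% and 6.72% of all probe sets were called, and the SD of S100A8 was 0 in Meishan GD15 and GD26 endometrium. Both Meishan calls were lost in 1 fit over both breeds (adjusted p = 0.458 and 0.642). The call against GD26 was also lost with the replicate number as a block (adjusted p = 0.0515). Leaving out any 1 Meishan GD26 array, or array 2 or 3 of Meishan GD50, lost it too (adjusted p from 0.0533 to 0.0637). Whether this probe set responds to its transcript in this tissue cannot be read from these arrays.

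S100A12, which signals through the receptor AGER in humans, was seen in 1 group only. Its values were 7.19, 8.64 and 6.01 in Yorkshire GD50 endometrium, with 2 of the 3 arrays above an intensity of 100. On the other 15 arrays, those of Yorkshire GD15 and GD26 and of Meishan GD15, GD26 and GD50, the values lay between 2.18 and 3.01. The Yorkshire GD50 mean was at least 1.56-fold higher than in Yorkshire GD26 endometrium (adjusted p = 0.00848 in the fit over all probe sets), Yorkshire GD15 endometrium (adjusted p = 0.00169) and Meishan GD50 endometrium (adjusted p = 9.89e-06), where the bound sets the dim group at an intensity of 100. This bound rests on single arrays: it was 1.60 without array 1 and 2.42 without array 3, and without array 2 the mean of 6.60 was itself under an intensity of 100 and gave no bound. The 3 Yorkshire GD50 arrays were far apart, and their SD of 1.32 was the largest of any member in any group. In the fit over all probe sets 4.68% of them were called for Yorkshire GD50 against GD26, 33.4% for Yorkshire GD50 against GD15 and 30.3% for Yorkshire against Meishan on GD50.

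CD163 rose in both breeds on the measured values and started lower in Yorkshire gilts, where the GD15 values lay under an intensity of 100. In Yorkshire endometrium the values were 4.98, 5.13 and 4.98 on GD15, then 7.21, 6.60 and 6.89 on GD26, then 7.01, 8.02 and 7.65 on GD50. In Meishan endometrium they were 7.15, 7.48 and 6.62 on GD15, then 7.63, 8.15 and 8.01 on GD26, then 8.12, 8.32 and 8.04 on GD50. The 3 Yorkshire GD15 arrays were under an intensity of 100 and lay below all 15 others.

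From GD15 to GD26 CD163 rose at least 1.20-fold in Yorkshire endometrium, where the measured change was 1.87 ± 0.26 (adjusted p = 0.000223), and by 0.85 ± 0.23 in Meishan endometrium (1.80-fold, adjusted p = 0.0106). With intensities under 100 set to 100 the Yorkshire change was 0.27 and not called (adjusted p = 0.370). The breed difference in this rise was 1.02 ± 0.36 (adjusted p = 0.0374) on the measured values, and -0.57 (adjusted p = 0.201) once intensities under 100 were set to 100. From GD26 to GD50 the changes of 0.66 ± 0.26 in Yorkshire and 0.23 ± 0.23 in Meishan endometrium did not pass the test (adjusted p = 0.131 and 0.537). GD50 exceeded GD15 at least 1.89-fold in Yorkshire (adjusted p = 3.05e-05) and 2.11-fold in Meishan endometrium (adjusted p = 0.00292).

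Yorkshire endometrium had less CD163 signal than Meishan endometrium on GD15, at least 1.35-fold lower (measured difference -2.05 ± 0.25, adjusted p = 5.87e-05, and -0.45 with adjusted p = 0.283 once intensities under 100 were set to 100). On GD26 the difference was -1.03 ± 0.25 (adjusted p = 0.00340), but it was between -0.68 and -0.52 and not called after median centring, quantile normalization or cyclic loess (adjusted p from 0.0530 to 0.128). On GD50 it was -0.60 ± 0.25 (adjusted p = 0.0548). In the order of means, Meishan GD50, Meishan GD26, Yorkshire GD50, Meishan GD15, Yorkshire GD26 and Yorkshire GD15, only the last step separated arrays that did not overlap. A second CD163 probe set lay between 2.18 and 3.93 on all 18 arrays and passed no test.

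AIF1 was above an intensity of 100 on all 18 arrays. In Yorkshire endometrium the values were 9.66, 9.65 and 10.38 on GD15, then 11.002, 10.62 and 10.49 on GD26, then 9.90, 10.18 and 10.21 on GD50. In Meishan endometrium they were 9.82, 9.73 and 7.83 on GD15, then 11.47, 10.87 and 10.44 on GD26, then 11.54, 11.55 and 11.08 on GD50. Yorkshire arrays were highest on GD26, and Meishan arrays were highest on GD50, where all 3 lay above every Yorkshire array.

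From GD15 to GD26 AIF1 rose by 0.81 ± 0.24 in Yorkshire (1.75-fold, adjusted p = 0.0144) and by 1.80 ± 0.48 in Meishan endometrium (3.49-fold, adjusted p = 0.0110). Without the third Meishan GD15 array the Meishan rise was 1.16 (adjusted p = 0.00889), and the Yorkshire rise did not pass without the first or the second Yorkshire GD15 array (0.69 each, adjusted p = 0.0606 and 0.0618). With no filter the Meishan rise was not called (adjusted p = 0.0716), and in 1 fit over both breeds the Yorkshire rise was not (adjusted p = 0.0891). The breed difference of this step was -0.996 ± 0.58 (adjusted p = 0.190). From GD26 to GD50 the changes of -0.61 ± 0.24 in Yorkshire and 0.46 ± 0.48 in Meishan endometrium did not pass (adjusted p = 0.126 and 0.562).

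Over the whole span from GD15 to GD50 AIF1 rose by 2.27 ± 0.48 in Meishan endometrium (adjusted p = 0.00321), while the Yorkshire change was 0.20 ± 0.24 (adjusted p = 0.477). This difference between the breeds passed its own test, at -2.06 ± 0.58 (adjusted p = 0.0114), and at -1.42 without the third Meishan GD15 array (adjusted p = 0.0104). On GD50 Yorkshire was lower than Meishan endometrium by a log2 difference of -1.29 ± 0.41 (2.45-fold, adjusted p = 0.0142), which was not called after median centring (-0.88, adjusted p = 0.0962) or cyclic loess (adjusted p = 0.0578). The groups ranked Meishan GD50, Meishan GD26, Yorkshire GD26, Yorkshire GD50, Yorkshire GD15 and Meishan GD15, and only Yorkshire GD26 and Yorkshire GD50 were neighbours that did not overlap.

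**Figure D2:**
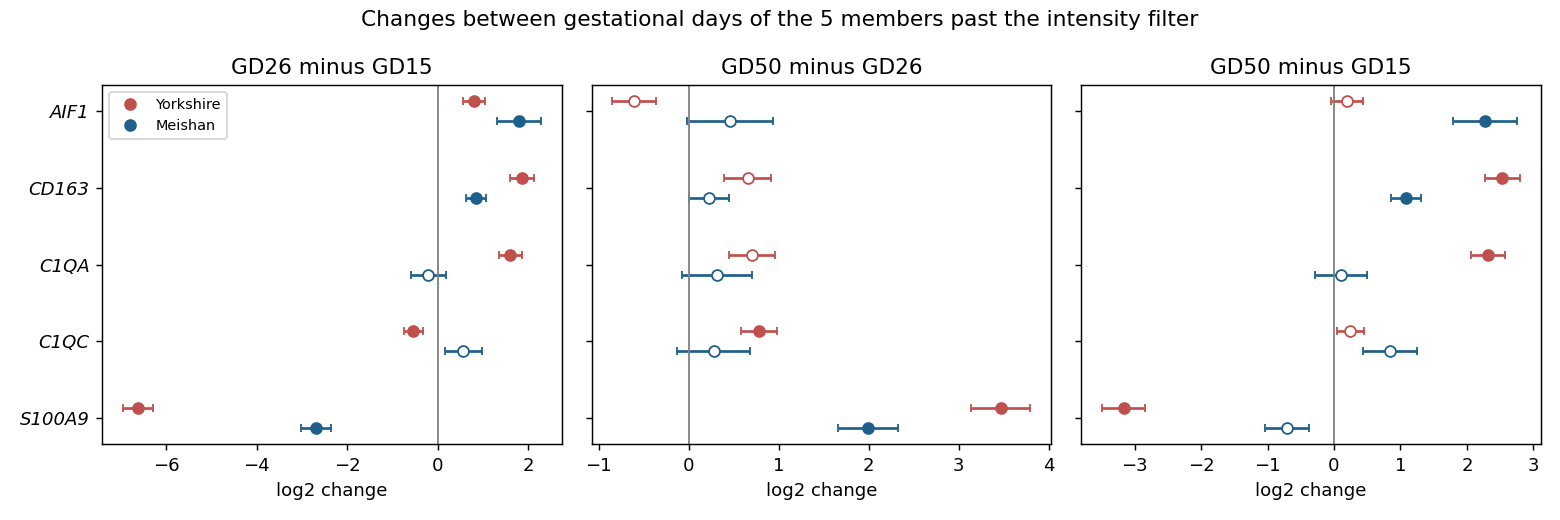
Log2 change (horizontal axis) of the 5 members past the intensity filter between pairs of gestational days, with Yorkshire in red above Meishan in blue and bars of 1 SE. Filled points passed the test at an adjusted p under 0.05 and open points did not; S100A9 changed by -6.63 in Yorkshire and -2.70 in Meishan endometrium between GD15 and GD26, and C1QA rose in Yorkshire endometrium alone on the day tests.

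C1QA, the A chain of C1q, rose in Yorkshire endometrium and not in Meishan endometrium. In Yorkshire endometrium the values were 7.02, 7.01 and 7.67 on GD15, then 8.57, 9.14 and 8.83 on GD26, then 9.36, 9.93 and 9.37 on GD50. In Meishan endometrium they were 7.20, 7.23 and 5.62 on GD15, then 6.06, 6.76 and 6.60 on GD26, then 6.96, 6.82 and 6.58 on GD50. The 3 days did not overlap in Yorkshire endometrium, and every Yorkshire GD26 and GD50 array lay above all 9 Meishan arrays. The Yorkshire step from GD26 to GD50 was 0.71 ± 0.26 and did not pass the test (adjusted p = 0.0995, limma). Of the 3 Meishan arrays per day, 2 on GD15, 1 on GD26 and 2 on GD50 were above an intensity of 100.

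The Yorkshire rise from GD15 to GD26 was 1.61 ± 0.26 (3.05-fold, adjusted p = 0.000475), and that from GD15 to GD50 was 2.32 ± 0.26 (4.99-fold, adjusted p = 4.50e-05). The Meishan changes over the same spans were -0.21 ± 0.39 and 0.10 ± 0.39 (adjusted p = 0.681 and 0.842). Without the third Meishan GD15 array the Meishan change to GD26 was -0.74 and passed the test (adjusted p = 0.0186). With all arrays and intensities under 100 set to 100 that change was -0.34 (adjusted p = 0.123). The breed difference was 1.82 ± 0.50 for GD15 to GD26 (adjusted p = 0.0110) and 2.22 ± 0.50 for GD15 to GD50 (adjusted p = 0.00306).

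Between the breeds, C1QA differed by 0.55 ± 0.35 on GD15 (adjusted p = 0.424), and Yorkshire endometrium was higher by 2.37 ± 0.35 on GD26 (5.17-fold, adjusted p = 6.73e-05) and by 2.77 ± 0.35 on GD50 (6.80-fold, adjusted p = 1.54e-05). With intensities under 100 set to 100 the differences were 2.16 on GD26 and 2.75 on GD50, both called. The 6 arrays on which C1QA was high were the same 6 with bright hybridization controls, and the part of that brightness was not tested. The median difference of all probe sets was -0.42 on GD26 and -0.46 on GD50, and under the 3 other scalings C1QA was higher in Yorkshire endometrium by 2.72 to 2.87 on GD26 and by 3.14 to 3.30 on GD50.

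C1QC, the C chain, took another course. In Yorkshire endometrium the values were 11.25, 11.12 and 11.66 on GD15, then 10.63, 11.11 and 10.68 on GD26, then 11.47, 11.72 and 11.56 on GD50. In Meishan endometrium they were 11.54, 11.19 and 9.66 on GD15, then 11.04, 11.53 and 11.53 on GD26, then 11.69, 11.45 and 11.80 on GD50. Apart from the third Meishan GD15 array all values lay between 10.63 and 11.80.

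In Yorkshire endometrium C1QC fell by 0.54 ± 0.20 from GD15 to GD26 (adjusted p = 0.0407) and rose by 0.78 ± 0.20 from GD26 to GD50 (adjusted p = 0.0339). The fall was between -0.42 and -0.14 and no longer called after median centring, quantile normalization or cyclic loess (adjusted p from 0.0963 to 0.620). It was also lost without array 1 or 3 of Yorkshire GD15 or of Yorkshire GD26 (adjusted p from 0.0713 to 0.157). The rise was lost with no filter (adjusted p = 0.0689) and in 1 fit over both breeds (adjusted p = 0.114). Leaving out array 1 or 3 of Yorkshire GD26 or any 1 Yorkshire GD50 array lost it too (adjusted p from 0.0535 to 0.0871). No Meishan change of C1QC passed, with 0.57 ± 0.41 for GD15 to GD26 and 0.28 ± 0.41 for GD26 to GD50 (adjusted p = 0.269 and 0.692), and without the third GD15 array the change from GD15 to GD26 was 0.00 (adjusted p = 0.995). No breed difference on any day passed either, with differences of 0.55, -0.56 and -0.06 on GD15, GD26 and GD50 (adjusted p from 0.179 to 0.894).

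The difference between the C1q chains on the same array shifted one way in Yorkshire and the other way in Meishan endometrium, and neither shift was tested. Subtracting C1QC from C1QA cancels only a factor that multiplies all intensities of an array alike. The level of the difference has no meaning between different probe sets. An effect that depends on intensity would remain, and C1QA was at 5.62 to 7.23 on the Meishan arrays, where C1QC was at 9.66 to 11.80. The part of array brightness in this difference was not tested. The difference averaged -4.11 ± 0.12 on GD15, -1.96 ± 0.10 on GD26 and -2.03 ± 0.22 on GD50 in Yorkshire endometrium, and -4.11 ± 0.20, -4.89 ± 0.10 and -4.86 ± 0.31 on the same days in Meishan endometrium (SD, n = 3). On GD15 the breeds therefore coincided, and on the later days the Yorkshire arrays lay above and the Meishan arrays below the GD15 range. Within groups the chains moved together, since their deviations from the group means correlated with r = 0.92 over the 18 arrays, which share gilts within a group, and the correlation of the values themselves over the 18 arrays was 0.22. Without the third Meishan GD15 array these were 0.75 for the deviations and -0.12 for the values.

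CD14 was dim throughout. Its brighter probe set was at 5.53, 5.82 and 6.21 on GD15, 5.49, 5.36 and 5.67 on GD26 and 6.60, 6.58 and 6.41 on GD50 in Yorkshire endometrium. In Meishan endometrium it was at 5.99, 5.34 and 5.49 on GD15, 5.22, 5.80 and 5.78 on GD26 and 6.35, 6.64 and 7.06 on GD50. Only 1 array, of Meishan GD50, was above an intensity of 100. In both breeds the GD50 arrays lay above those of GD15 and GD26 without overlap. In Yorkshire endometrium all groups were under 100 and no fold change is given. There GD50 was called against GD15 (0.68, adjusted p = 0.0242 in the fit over all probe sets, where 33.4% were called). It was also called against GD26 (1.03, where 4.68% were called). The first call was lost without array 1 or 2 of Yorkshire GD15 or of Yorkshire GD50 (adjusted p from 0.0542 to 0.0760). The second was lost without any 1 Yorkshire GD26 array and without array 1 or 2 of Yorkshire GD50 (adjusted p from 0.0515 to 0.0774). In Meishan endometrium GD50 was at least 1.03-fold higher than GD15 (adjusted p = 0.0312 in the same fit, where 21.8% were called). The Meishan step from GD26 did not pass (adjusted p = 0.0690, where 6.72% were called). The Meishan call from GD15 was lost without array 2 or 3 of Meishan GD15 (adjusted p = 0.101 and 0.0850) and without array 2 or 3 of Meishan GD50 (adjusted p = 0.0818 and 0.0862). The dimmer CD14 probe set lay between 2.18 and 2.97.

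One array of the series mattered for most members. The third Meishan GD15 array lay below the mean of the other 2 arrays of its group by 1.94 for AIF1, 1.70 for C1QC, 1.59 for C1QA, 1.33 for S100A9 and 0.70 for CD163. The same array was lower for 7 of 7 pan-leukocyte genes, by a median of 1.04, and for the lymphocyte genes GNLY and GZMH, while of the other macrophage genes CTSS and VSIG4 1 was lower and 1 higher (median -0.33), both other neutrophil genes were lower (median -0.26), of the 9 epithelial genes 5 were lower and 4 higher and the median over all probe sets was -0.04. With all 3 arrays the Meishan GD15 group had an SD of 1.12 for AIF1, 1.00 for C1QC and 0.92 for C1QA, the largest of the 6 groups for each of these genes.

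**Figure D3:**
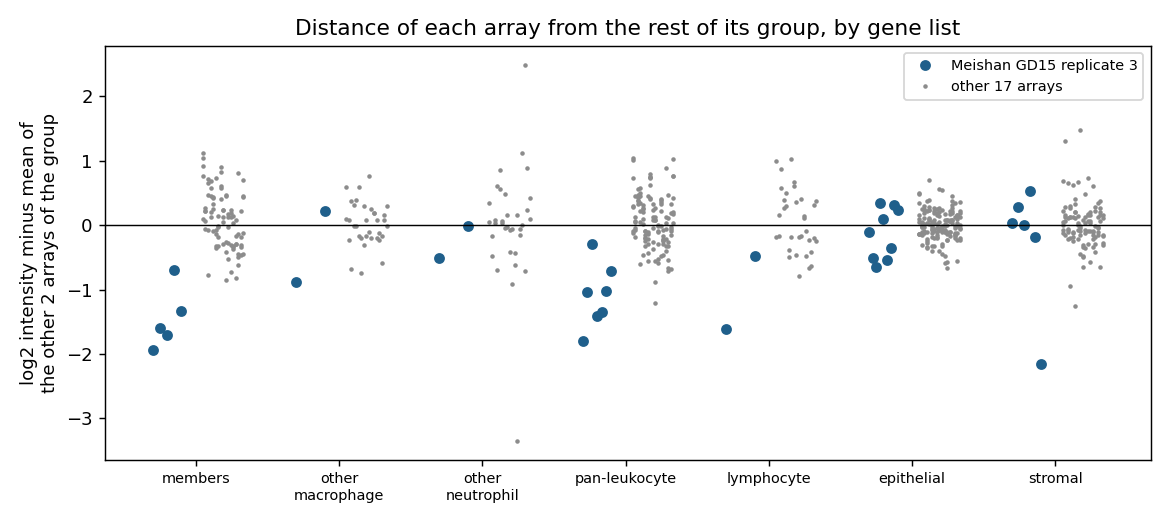
Log2 intensity of each array minus the mean of the other 2 arrays of its group (vertical axis), for each gene past the filter in 7 gene lists. Large blue points are the third Meishan GD15 array and small grey points the other 17 arrays; for the 5 members the blue points run from -1.94 to -0.70 and for the 7 pan-leukocyte genes all lie below 0.

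Other genes of the same cells are given from lists that were set with earlier results of these data known. VSIG4, a complement receptor of resident macrophages, rose between GD15 and GD26 at least 1.39-fold in Yorkshire endometrium, where its GD15 arrays were all under an intensity of 100 (adjusted p = 0.00379), and by 0.99 ± 0.26 in Meishan endometrium (adjusted p = 0.0100), and rose again to GD50 in Yorkshire endometrium by 1.14 (adjusted p = 0.0119). Its course was close to that of CD163, with group means of 6.10, 7.12 and 8.26 in Yorkshire and 6.94, 7.93 and 8.60 in Meishan endometrium on the 3 days. CTSS, a lysosomal protease of antigen-presenting cells, fell by 1.31 in Yorkshire endometrium from GD15 to GD26 (adjusted p = 0.00152), and its Meishan means were 11.24, 11.07 and 11.16 with no change called.

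PGLYRP1, a peptidoglycan-binding protein of neutrophil granules, ran opposite to S100A9 in Yorkshire endometrium. It was at no more than 2.23 on GD15, 11.19 to 11.30 on GD26 and 6.98 to 8.20 on GD50 in Yorkshire endometrium, and under an intensity of 100 on all 9 Meishan arrays, with a highest value of 6.22 on GD26. On GD26 it was at least 24.1-fold higher in Yorkshire than in Meishan endometrium (adjusted p = 9.21e-07) and than in Yorkshire GD15 endometrium (adjusted p = 1.98e-08), on the day when S100A9 was at its lowest and HBE1 at its highest. CYBA, a subunit of the phagocyte oxidase, fell by 0.92 in Yorkshire endometrium from GD15 to GD26 (adjusted p = 0.0187), which was not called under any of the 3 other scalings, and its Meishan change was -0.26 (adjusted p = 0.370).

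Of the 7 pan-leukocyte genes past the filter, 2 rose and 3 fell from GD15 to GD26 in Yorkshire endometrium (median -0.73, with -0.47 over all probe sets), and 5 rose and none fell in Meishan endometrium (median 0.99, with -0.06 over all probe sets). Among the 3 that fell in Yorkshire endometrium were CD53, by 1.41, and CORO1A, by 1.17, and among the 2 that rose was LAPTM5, a lysosomal membrane protein, by 0.88, which was not the larger of these 2 rises. FCER1G, the shared signalling chain of Fc receptors, fell at least 1.25-fold in Yorkshire endometrium, where its GD26 arrays were all under an intensity of 100, and rose by 1.12 in Meishan endometrium, with a measured breed difference of -2.73 (adjusted p = 0.000824). After cyclic loess the Yorkshire falls of FCER1G and CORO1A were not called, and that of CORO1A was not called after quantile normalization. The lymphocyte genes GNLY and GZMH both fell in Yorkshire endometrium over this step as deposited, by 0.97 and by at least 1.49-fold, but neither was called under the 3 other scalings, and GZMH was at 0.03 after cyclic loess. In Meishan endometrium GNLY fell by 1.16, and GZMH changed by -0.58 (adjusted p = 0.0708) and was called after quantile normalization alone (-1.06, adjusted p = 0.00432).

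Of the genes of lipopolysaccharide sensing, TLR4 fell from GD15 to GD26 and rose to GD50 in both breeds, by 2.20 and then 1.78 in Yorkshire and by 0.61 and then 1.27 in Meishan endometrium. LY96, which binds lipopolysaccharide on TLR4, fell by 1.26 and rose by 1.49 in Yorkshire endometrium, and in Meishan endometrium neither step was called. BPI, a protein that neutralizes lipopolysaccharide, rose at least 64.9-fold in Yorkshire and at least 3.16-fold in Meishan endometrium between GD15 and GD26, and IL6, a cytokine made on such signals, at least 3.29-fold and at least 6.21-fold. Over the 5 genes of this list past the filter 2 rose and 2 fell in Yorkshire and 3 rose and 1 fell in Meishan endometrium from GD15 to GD26.

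Among the other S100 genes, S100A1 had a low point on GD26 in both breeds, with group means of 11.16, 10.56 and 12.03 in Yorkshire and 10.87, 9.22 and 10.33 in Meishan endometrium on the 3 days, though its Yorkshire fall to GD26 of 0.60 was not called after median centring or cyclic loess. S100B fell by 2.84 in Yorkshire and 1.50 in Meishan endometrium between GD15 and GD26, and S100G, the calcium carrier calbindin of the uterus, rose by 0.74 in Meishan endometrium. In Yorkshire endometrium S100G fell to a mean of 8.62 on GD26, against 9.62 on GD15 (adjusted p = 0.00295; median centring gave -0.61, not called), and rose by 2.58 from GD26 to GD50. S100A10, an annexin partner, rose by 0.59 in Yorkshire and 0.76 in Meishan endometrium from GD15 to GD26. Of the 6 genes in this list past the filter 1 rose and 3 fell in Yorkshire and 2 rose and 2 fell in Meishan endometrium from GD15 to GD26.

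CD163 belongs to the pathway that clears haemoglobin. HP, the haptoglobin that carries haemoglobin to CD163, was under an intensity of 100 on all GD15 and GD26 arrays and averaged 13.98 in Yorkshire GD50 and 12.98 in Meishan GD50 endometrium. HMOX1, which degrades the haem taken up, was above 100 on all 6 GD26 arrays and peaked there, with means of 10.97 in Yorkshire and 10.06 in Meishan endometrium. Its GD26 level was at least 20.1-fold above GD15 in Yorkshire and at least 10.7-fold above it in Meishan endometrium, and its GD50 level was lower again in both breeds, by a log2 change of -3.85 in Yorkshire endometrium and at least 10.7-fold in Meishan endometrium. HMOX2, the constitutive form of the same enzyme, fell by 2.14 in Yorkshire and 1.42 in Meishan endometrium from GD15 to GD26. Over the same step FTL fell by 0.90 in Yorkshire as deposited (adjusted p = 0.000564) and by 0.56 in Meishan endometrium (adjusted p = 0.00872, limma). FTH1 fell by 0.53 in Yorkshire as deposited (adjusted p = 0.0100), and its Meishan change of -0.18 was not called (adjusted p = 0.218). For FTL and FTH1 the other scalings are not given.

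Of the 11 other complement genes past the filter, 3 rose and 5 fell in Yorkshire and 5 rose and 1 fell in Meishan endometrium from GD15 to GD26. C1R and C1S, the proteases that C1q activates, were between 11.67 and 12.62 in group mean throughout. C1S fell in Yorkshire endometrium from GD15 to GD26 by 0.72 (adjusted p = 0.0154, not called after median centring or cyclic loess) and C1R by 0.43 (adjusted p = 0.0489, not called under the same 2 scalings), and neither was called in Meishan endometrium at this step (adjusted p = 0.175 and 0.156). CFB, of the alternative pathway, rose at least 7.08-fold in Yorkshire and at least 3.52-fold in Meishan endometrium, and C7, of the membrane attack complex, rose at least 2.13-fold and at least 2.79-fold. CFD, the protease that cleaves CFB, fell by 3.48 in Yorkshire and 1.87 in Meishan endometrium, and CD55, which dissociates complement convertases on cell surfaces, rose by 3.04 in Yorkshire and 3.49 in Meishan endometrium.

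The genes whose course over the 18 arrays was most like that of each member were found among 4339 other genes past the filter, as a description over arrays that share gilts within a group. CD163 was most like CD55 (r = 0.90), LYPD6 (0.90) and the tissue factor gene F3 (0.89). AIF1 was most like PPP2R1B (0.92), LOC100156879 (0.87) and KLF13 (0.86), and C1QA like the translation factor gene EEF1A1 (0.95), C2H19orf43 (0.94) and the spectrin gene SPTAN1 (0.93). C1QC was the only member with a leukocyte gene among its 3, with RNF181 (0.85), TYROBP (0.85) and MYL6 (0.85), and S100A9 was most like MCL1 (0.94), POLR2I (0.94) and C13H21orf59 (0.89). On the third Meishan GD15 array C1QC was at its lowest, 9.66, and TYROBP was also lower than in the rest of that group. These correlations with genes other than members were not recomputed without that array. No member was among the 3 most similar genes of another, and the correlations between members over the 18 arrays ran from -0.69 for CD163 with S100A9 to 0.54 for AIF1 with C1QC. Without the third Meishan GD15 array AIF1 with C1QC was at 0.02, and the highest pair was AIF1 with CD163 at 0.57.

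**Figure D4:**
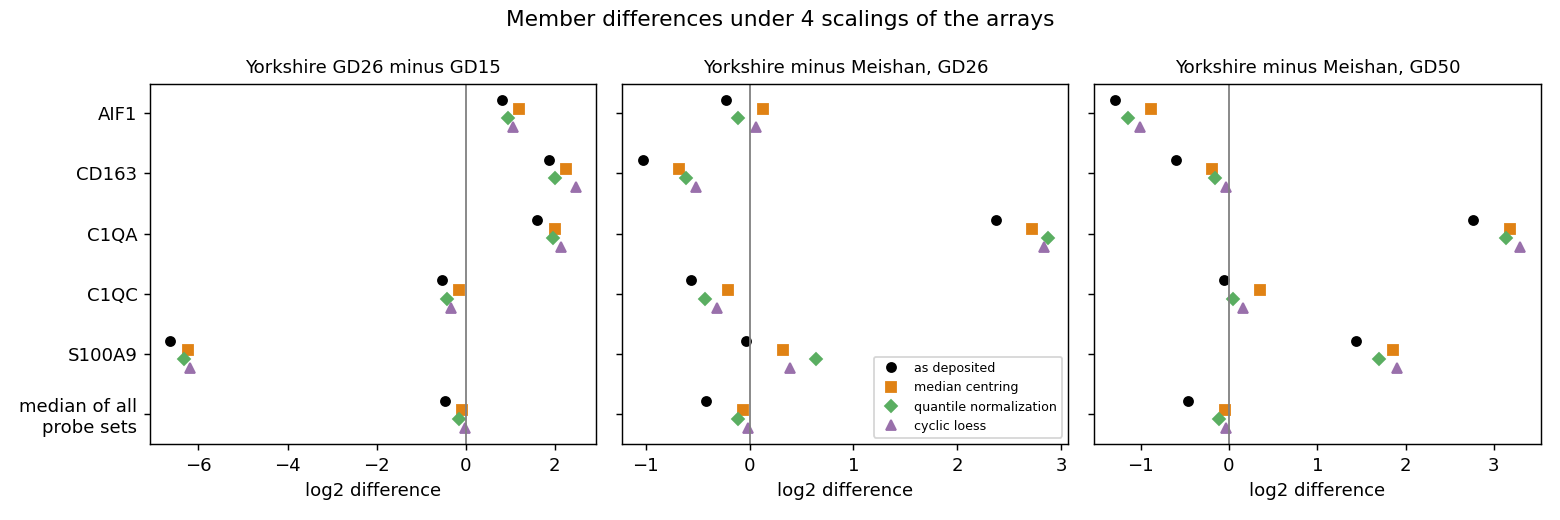
Log2 difference (horizontal axis) of the 5 members and of the median of all probe sets past the filter under 4 scalings of the arrays, for Yorkshire GD26 minus GD15 and for Yorkshire minus Meishan on GD26 and GD50. Black circles are the deposited values; the median over all probe sets was -0.47, -0.42 and -0.46 as deposited and between -0.16 and -0.01 after the other scalings, and S100A9 and C1QA kept their side of 0 where they were called.

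The Yorkshire changes from GD15 to GD26 under median centring, quantile normalization and cyclic loess lay between -6.33 and -6.19 for S100A9, between 1.96 and 2.14 for C1QA, between 2.01 and 2.48 for CD163 and between 0.96 and 1.20 for AIF1, all called. For AIF1 in Yorkshire GD50 against GD15 endometrium median centring gave 0.66 (adjusted p = 0.0355), where the deposited values gave 0.20, and for C1QC it gave 0.70 (adjusted p = 0.0245), where the deposited values gave 0.24. Among all probe sets called, those lower in Yorkshire GD26 than in GD15 endometrium were 68.9% as deposited and 51.4%, 55.1% and 47.8% under the 3 scalings, and those lower in Yorkshire than in Meishan endometrium on GD50 were 80.8% as deposited and 51.9%, 55.4% and 48.5%.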

How the data were processed

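RNA of porcine endometrium was hybridized to 18 Affymetrix porcine arrays. The authors normalized the arrays with GCRMA in R, and the deposited table holds log2 intensities. The submitters' processing notes also name RMA, so that which of the 2 made the table was judged from the methods. Medians of the arrays were left unequal. No genome build was used for the values; symbols came from the platform annotation, in which 10099 probe sets had 1 symbol, 198 several and 13826 none, and 9989 of those with 1 symbol matched RefSeq.

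Probe sets with an intensity above 100 on at least 6 arrays were kept, as in the methods of the study, without the 124 control probe sets. Changes between days were fitted within each breed, and breed differences and differences in change in 1 fit over the 6 groups, with limma 3.58.1 (lmFit and eBayes) in R 4.3.3 and Benjamini-Hochberg adjustment over the 9320 probe sets. A call is an adjusted p under 0.05. Members under the filter were tested over all 23999 probe sets. The study called DEGs at a fold change of at least 2 as well, which was an alternative here, as were 3 scalings, other filters, a floor at 100, Bonferroni adjustment, a variance trend, 1 fit over both breeds, a replicate block and leaving out each array. Where all arrays of the dimmer group were under 100, a fold was computed against an intensity of 100 and is given as a minimum. The scripts were tested on simulated data. Arrays give no counts, and 3 per group limit the precision.

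Named were all members, the 3 genes most correlated with each, and from each list up to 4 genes with the largest change past the test in the comparison described; genes of known role beside a member, and those at the bottom of the scale, were added after their values were seen. For a gene with several probe sets the brightest stood. The members and the lists were chosen with earlier results of these data known. Among the pan-leukocyte genes not all are named, and 1 that this rule would name is not reported here. Replicate numbers marked no shared gilt, litter or day in the labels, and the correlation of same-numbered deviations exceeded 0.1 for every number only between Meishan GD26 and GD50.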

Additional observations from a re-analysis of the deposited data

Results flagged for a closer look

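The tests of the difference between the breeds picked out 9 changes of 5 members. From GD15 to GD26 the Yorkshire change minus the Meishan change was -3.93 for S100A9, 1.82 for C1QA and 1.02 for CD163, 3 of the 5 members tested, where 35.5% of all probe sets were called. From GD15 to GD50 it was -2.46 for S100A9, 2.22 for C1QA, 1.45 for CD163 and -2.06 for AIF1, 4 of 5, where 39.5% of all were called. From GD26 to GD50 none of the 5 members passed in limma, and the unadjusted p was under 0.05 for S100A9 alone (0.00951), where 4.37% of all probe sets were called. In the fit over all probe sets S100A12 differed by 4.83 from GD26 to GD50 (adjusted p = 0.00189, with 2.19% called) and by 4.18 from GD15 to GD50 (adjusted p = 0.000730, with 18.8% called), sizes that rest on values near the bottom of the scale in every group but Yorkshire GD50.

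The 2 differences of CD163 changed sign, to -0.57 and -0.15, with intensities under 100 set to 100. Without the third Meishan GD15 array the differences from GD15 to GD26 were -3.49 for S100A9, 2.35 for C1QA and 1.25 for CD163, and those from GD15 to GD50 were -2.01, 2.75 and 1.68 for the same genes and -1.42 for AIF1, all called. The median difference over all probe sets was -0.41 from GD15 to GD26 and -0.44 from GD15 to GD50.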

How the results depend on the processing

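The calls of the 5 members past the filter were recomputed under every listed alternative, and the number called stayed within 1.5 times its value in 218 of 245 cases. With Bonferroni adjustment it was 0 for the 3 Meishan comparisons and for the breed difference from GD15 to GD50, and 1 for Yorkshire GD26 against GD15, Yorkshire GD50 against GD26, Yorkshire against Meishan on GD26 and on GD50, and the breed difference from GD15 to GD26. For Yorkshire GD26 against GD15 it was 3 of 5 with a fold change of at least 2 and in 1 fit over both breeds, and 3 to 5 with 1 array left out, with 3 without array 1 of Yorkshire GD15. For Yorkshire GD50 against GD26 it was 1 with no filter, with the fold threshold, in 1 fit over both breeds, and 1 to 2 with 1 array left out (C1QC was lost without array 1 or array 3 of Yorkshire GD26 and without any 1 Yorkshire GD50 array). Median centring gave 5 for Yorkshire GD50 against GD15, and each of the 3 scalings gave 1 for Yorkshire against Meishan on GD26. A floor at 100 gave 1 for Yorkshire against Meishan on GD15 and turned the breed difference of CD163 to -0.57 from GD15 to GD26 and to -0.15 from GD15 to GD50. Using Yorkshire GD26 array 1 alone, added after seeing the data because its hybridization controls lay nearest those of the other groups, gave 1 for Yorkshire GD50 against GD26 and 1 for Yorkshire against Meishan on GD26; the lone array was taken to vary like those of the other groups. C1QC was then not called for GD26 against GD15 or GD50 against GD26 (adjusted p = 0.0532 and 0.0545), with fewer arrays and the larger changes of -0.72 and 0.96, S100A12 for GD50 against GD26 (adjusted p = 0.0803), CD163 between the breeds on GD26 (-0.72, adjusted p = 0.145), nor C1QA for the breed difference to GD26 (1.54, adjusted p = 0.0953). CD163 lost its breed difference from GD15 to GD26 without 9 single arrays (adjusted p from 0.0537 to 0.0977) and with no filter. The mean of a gene's probe sets past the filter changed nothing, since each member had 1. CD14 lost its calls in Meishan GD50 against GD15 and in Yorkshire GD50 against GD26 with the replicate block (adjusted p = 0.0768 and 0.0737). Its Meishan step from GD26 was called in 1 fit over both breeds (adjusted p = 0.0112). Signs changed in 44 further values that were called on neither side.

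Same-numbered arrays mostly did not deviate together, with r from -0.56 to 0.33 and above 0.1 in 12 of 45 pairs. For all 3 numbers r was above 0.1 between 1 pair of groups only, Meishan GD26 and GD50 (0.18, 0.13 and 0.33). In the other pairs of groups a low r over so few arrays cannot show whether the numbers pair the arrays, for example by attachment site. With the replicate block S100A9 was still called in Meishan GD50 against GD26 (adjusted p = 0.00227). With the replicate number as a block, 1 of 5 members was called for Yorkshire GD50 against GD26, C1QC being lost there (adjusted p = 0.0518) and for GD26 against GD15 (adjusted p = 0.0564), and S100A9 passed for Meishan GD50 against GD15 (adjusted p = 0.0484).

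The count of all probe sets called was 33 to 1214 with Bonferroni adjustment in the 12 comparisons, against 407 to 6198. With a fold of at least 2 it was 2234 against 4745 and 689 against 1715 for the 2 Meishan steps, 2342 against 4842 for Meishan GD50 against GD15, 788 against 1265 for Yorkshire GD50 against GD26, and 494, 2432 and 2758 against 913, 4957 and 5268 for the breeds on GD15, GD26 and GD50. In 1 fit over both breeds it was 2142 against 1265 for Yorkshire GD50 against GD26. With Yorkshire GD26 array 1 alone it was 2686 against 4957 for the breeds on GD26 and 2042 against 3313 for the breed difference to GD26. Leaving out 1 array gave as few as 1017 of 1715 for Meishan GD50 against GD26, 590 of 913 for the breeds on GD15 and 231 of 407 for the breed difference from GD26 to GD50. Lower calls made up 79.8% for the breeds on GD26 against 53.8%, 57.0% and 46.5% after the 3 scalings, 70.8% against 51.3%, 55.1% and 48.4% for Yorkshire GD50 against GD15, 75.5% against 48.6%, 52.2% and 42.4% for the breed difference to GD26, and 76.8% against 47.7%, 49.9% and 43.3% for that to GD50. The cause of these shifts was not tested.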
